A study of Mus musculus with 6 samples.

Results

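ALCAM+ cells of the fetal mouse liver that carried podoplanin on their surface (PDPN+) were compared with ALCAM+ cells that did not (PDPN-), on 1 array each. The pair makes up 2 of the 6 arrays of the series. Each gene was represented by 1 probe set, the one with the higher mean over the pair. A gene entered the comparison where the higher of its 2 intensities exceeded a floor of 109, the median of all probe set values of the 6 arrays. The table measures 20678 genes with probe sets that name no other gene, and 13452 of them passed this floor.

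The cells came from livers of wild type C57Bl6 embryos at E12.5, in mid-gestation. Besides the PDPN pair, the series holds an ITGA8+ and an ITGA8- fraction of ALCAM+ cells, ALCAM+ cells before further sorting, and unsorted liver cells. RNA was amplified from 20 ng and hybridised to Affymetrix Mouse Genome 430 2.0 arrays. Neither the number of embryos pooled nor the sort gates are given in the sources used here. Since no group was repeated, no value carries an error or a test. A difference is called at 2-fold on the scale of log2(intensity + 16), taken as PDPN+ minus PDPN-, and it compares 2 arrays.

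ALCAM is an adhesion molecule of the immunoglobulin family carried by mesothelial cells, mesenchymal cells and hepatoblasts of the fetal liver. Podoplanin is a mucin-like surface glycoprotein of mesothelium, the epithelial sheet that covers the liver, and of lymphatic endothelium, and it is the ligand of CLEC-2 on platelets. Beneath the mesothelium lie hepatic stellate cells, the perivascular cells that store vitamin A, while hepatoblasts are the epithelial precursors of hepatocytes and bile duct cells. The liver is the main site of blood formation at this age.

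The sort markers followed the labels. Pdpn intensity was 7746 in PDPN+ and 117 in PDPN-, just above the floor, whereas Alcam was at 19332 and 16996. The mesothelial genes Bnc1, a zinc finger factor, and Upk3b, a uroplakin, were at 9573 and 14424 in PDPN+ and at 86 and 139 in PDPN-. Lrat, the enzyme that esterifies retinol for storage in stellate cells, ran the other way, at 9 in PDPN+ and 231 in PDPN-. Itga8, the integrin alpha 8 subunit of stellate cells, was at 737 in PDPN+ and 2215 in PDPN-.

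The 2 arrays shared a scale, with means of 996.4 and 996.0 after trimming 2% of values at each end, but not a shape. The median probe set was at 181 in PDPN+ and 123 in PDPN-, and 13021 and 11881 genes exceeded the floor. Their Spearman correlation over 45037 probe sets was 0.913, against 0.9635 for the ITGA8 pair. The PDPN- array had its highest correlation with PDPN+ (0.913), then ITGA8- (0.9089) and ITGA8+ (0.8925).

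At 2-fold, 2694 genes (20.0% of those tested) had the higher value in PDPN+ and 1064 (7.91%) in PDPN-. The median difference over all genes was 0.04. The 2 sides differed in depth of contrast. Among genes higher in PDPN+ the median intensities were 611 in PDPN+ and 107 in PDPN-, and for 1359 of them (50.4%) the PDPN- array was at or below the floor. Among genes higher in PDPN- the medians were 1087.5 in PDPN- and 405 in PDPN+, and only 275 (25.8%) had PDPN+ at or below the floor. Differences of 4-fold or more numbered 1238 toward PDPN+ and 109 toward PDPN-, and differences of 32-fold or more 83 and 0. So the PDPN- side consisted mostly of genes above the floor in both arrays, while the PDPN+ side held many genes at or below it in PDPN-. The PDPN- array also had the lower median, and the shares at or below the floor were not recomputed after rescaling. The share of 2-fold genes that lay on the PDPN+ side was 71.7% with values as deposited. It was 56.2% after quantile normalisation of the pair and 56.6% after centring by intensity with loess, where 1592 and 1432 genes were higher in PDPN-. Some genes had more than 1 usable probe set. A second one was 2-fold in the same direction for 686 of 863 such genes higher in PDPN+ (79.5%) and for 173 of 270 higher in PDPN- (64.1%).

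**Figure D1:**
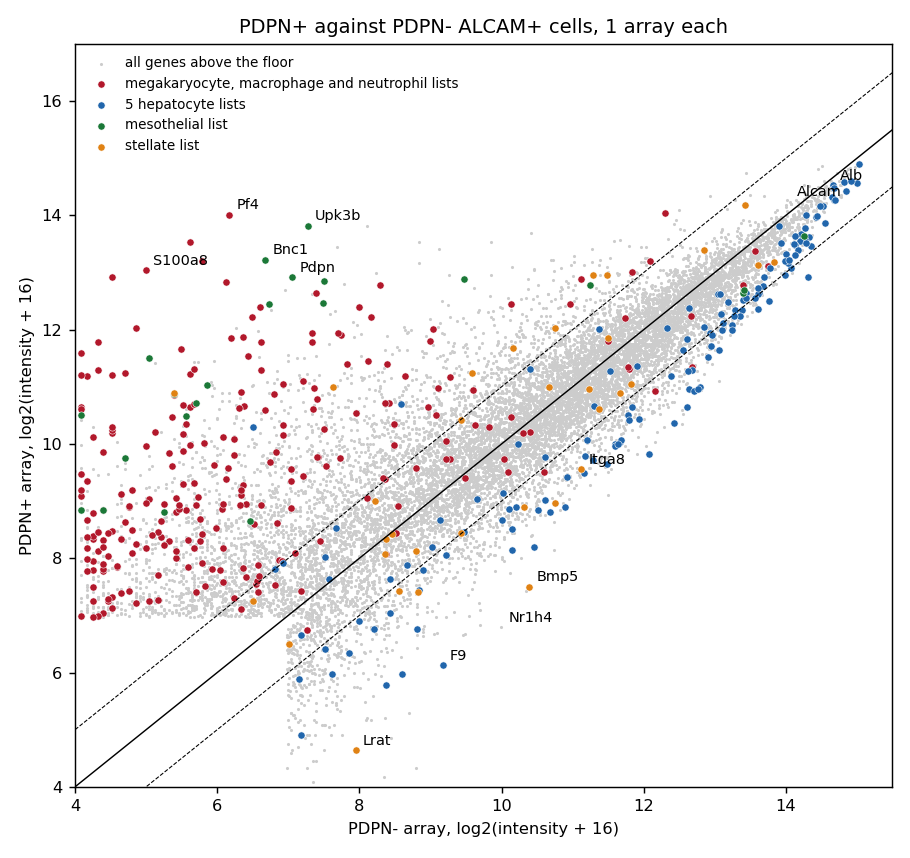
Each point is a gene above the floor, by its log2(intensity + 16) in the PDPN- array (x) and the PDPN+ array (y), 1 array each; the solid line marks equality and the dashed lines 2-fold. Genes of the hepatocyte lists lie below equality along the upper end, whereas mesothelial and blood genes fill the upper left, where the PDPN- array is near background.

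Ranked by difference among genes higher in PDPN- with an intensity of 500 or more there, the first 30 were 4.20-fold to 9.18-fold higher there, and in 8 of them PDPN+ was at or below the floor. Of 8 with a further probe set above the floor, 6 had one 2-fold in the same direction. At the head stood Nr1h4, which encodes the bile acid receptor FXR, at 95 in PDPN+ and 1003 in PDPN-, a 9.18-fold difference. F9, coagulation factor IX, was at 54 and 560 (8.23-fold), and F11, coagulation factor XI, at 887 and 4290 (4.77-fold). F11 was thus expressed well above the floor on both sides, and F9 on 1 side only.

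Other members of the 30 belong to hepatocyte metabolism. Arg1, the arginase of the urea cycle, was at 279 in PDPN+ and 1383 in PDPN-. Pon1, a paraoxonase carried on high density lipoprotein, was at 242 and 1216, and Sult1b1, a sulfotransferase, at 120 and 811. These enzymes were 4.74-fold, 4.78-fold and 6.08-fold higher in PDPN-. The acyl-CoA thioesterase gene Acot3 was at 268 and 1692, and Gjb2, the gap junction protein connexin 26 of hepatocytes, at 893 and 3805. Entpd8, an ectonucleotidase, was at 109 and 525. Saa3, an acute phase serum amyloid, was at 98 and 812. Each of these rests on 1 probe set above the floor.

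The 30 also held 2 secreted signalling proteins. Bmp5, a bone morphogenetic protein ligand, was at 165 in PDPN+ and 1327 in PDPN-, 7.42-fold higher, and its 2 other probe sets differed by -2.19 and -2.14 on the log2 scale. Dkk1, a secreted WNT inhibitor, was at 86 and 699, a 7.01-fold difference. Shisa3, of the Shisa membrane protein family, was at 133 and 808, and its other probe set differed by -2.64. The receptor gene Adra2b, the alpha-2B adrenergic receptor, was at 85 and 688. Further members of the 30 were Cphx1, a homeobox gene (157 and 1290), Clca3a1 (203 and 941), A2ml1 (148 and 725), Smlr1 (978 and 4174), Mettl7a2 (1035 and 4573), Dqx1 (111 and 727), Ocstamp (110 and 579), Oaz3 (233 and 1029) and Tmem243 (383 and 1684). AI195470, AW061147, 4833411C07Rik, BC059841, 0610040J01Rik, 1110032F04Rik and Rap1gapos are without a well described product. Tmem243 is uncertain, since its other probe set differed by 0.95 the opposite way. That of Clca3a1 differed by -0.98, short of 2-fold, and the 2 of Oaz3 by -1.79 and -0.26. Cphx1 and Clca3a1 belong to families of close copies that can share probes.

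**Figure D2:**
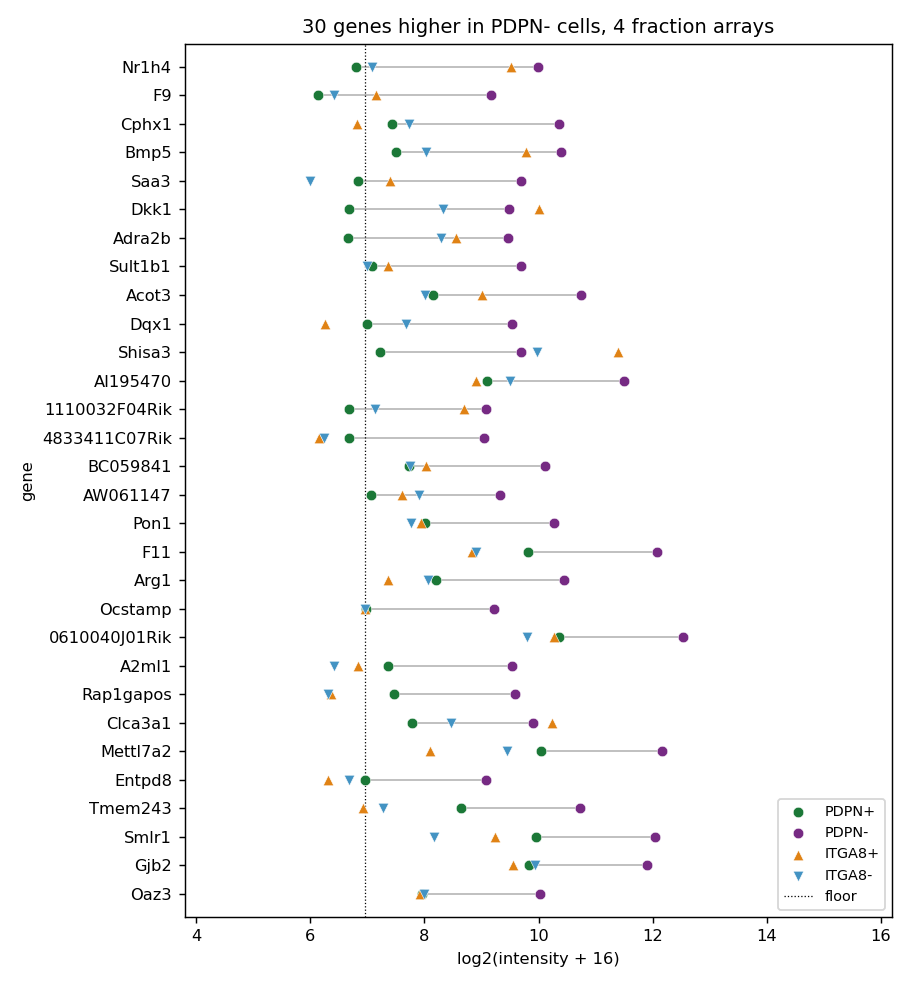
The 30 genes with the largest difference toward PDPN-, in order, with log2(intensity + 16) in the 4 fraction arrays, 1 array each; the grey line joins the PDPN pair and the dotted line is the floor. PDPN- is the highest of the 4 arrays for most genes, with ITGA8+ above it for Dkk1, Shisa3 and Clca3a1.

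Lists of hepatocyte function had medians below 0. Over 5 lists (plasma proteins, coagulation and complement, lipoprotein and bile acid, amino acid and glucose metabolism, cytochrome P450 and conjugation) 143 genes were above the floor, of which 67 were higher in PDPN- and 4 in PDPN+, with a median of -0.93 beside 0.04 over all genes. These genes were also split by the lower of their intensities in the pair. That lower value is part of the difference, so a large difference can by itself place a gene among those below the limit. Whether the size depended on level was therefore not tested. Among the 55 genes at 5000 or more in both arrays the median was -0.68 and 6 were 2-fold higher in PDPN-, against a median of -1.26 and 61 of 88 for the others. Albumin (Alb, 23591 in PDPN+ and 25926 in PDPN-) and alpha-fetoprotein (Afp, 30471 and 33456) differed by -0.14 and -0.13. Both lie near the highest intensities of these arrays, 30846 in PDPN+ and 34299 in PDPN-, and whether their probe sets could still show a difference was not tested. Housekeeping genes had a median of -0.18, with 0 of 18 past 2-fold.

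Coagulation and complement genes had the lowest median of these lists, -1.36, with 18 of 28 genes higher in PDPN- and 2 in PDPN+. Beside these stand 7.91% and 20.0% over all genes. Besides F9 and F11, the complement regulator gene C4bp was at 47 in PDPN+ and 371 in PDPN-, and C9, of the membrane attack complex, at 39 and 315. C2 was at 1589 and 6209, C1ra at 268 and 1117, and plasminogen (Plg) at 1939 and 6675. The exceptions were Cfp, properdin, known from myeloid cells, at 1644 and 367, and F8, coagulation factor VIII, at 209 and 96. Prothrombin (F2, 10817 and 18347) differed by -0.76 and did not reach 2-fold. In the plasma protein list 8 of 35 genes were 2-fold higher in PDPN- and 0 in PDPN+ (median -0.68), among them Itih4 (2022 and 7050) and the pentraxins Apcs (1968 and 6374) and Crp (1372 and 3915).

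Of 28 genes for amino acid, urea and glucose metabolism 15 were higher in PDPN- and 0 in PDPN+ (median -1.02), beside 7.91% and 20.0% over all genes. Hpd, of tyrosine breakdown, was at 1302 and 5509, Agxt, of glyoxylate handling, at 462 and 1877, and Gnmt at 977 and 3072. Among urea cycle genes Otc was at 5777 and 13843 and Ass1 at 2913 and 7617, while Cps1, the first enzyme of the cycle, was at 1009 and 1186. Cps1 thus did not follow Otc, Ass1 and Arg1. Of 18 cytochrome P450 and conjugation genes, 12 were 2-fold higher in PDPN- and 1 in PDPN+ (median -1.20), with Sult1a1 at 93 and 432, Gsta3 at 1989 and 6949 and Cyp2d10 at 1005 and 3179. The exception was Cyp2s1, at 1243 in PDPN+ and 75 in PDPN-. Of 34 lipoprotein and bile acid genes 14 were higher in PDPN- and 1, the sterol transporter gene Abcg5 (226 and 105), in PDPN+ (median -0.82). Apoc3 was at 431 and 1630, hepatic lipase (Lipc) at 3169 and 8524, the canalicular pumps Abcb4 and Abcc2 at 391 and 1011 and at 1445 and 3491, and Cyp7a1, the first enzyme of bile acid synthesis, at 47 and 180.

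Transcription factors of hepatoblasts were also mostly higher in PDPN-. Of 26 above the floor 15 were 2-fold higher in PDPN- and 1 in PDPN+ (median -1.04), beside 7.91% and 20.0% over all genes. In a separate list of hepatoblast surface genes and markers, 14 of 16 were within 2-fold (median -0.50). Transcription factors are named here. Foxa2 and Foxa1, pioneer factors of the liver, were at 283 and 948 and at 1404 and 3714. Nr5a2, a regulator of bile acid and sterol genes, was at 1327 and 3182, Creb3l3 at 918 and 2362, and Nr0b2, a target of FXR, at 10 and 124. The exception was Id1, a helix-loop-helix inhibitor and BMP target, at 4163 in PDPN+ and 1645 in PDPN-. Hnf4a, a master factor of hepatocytes, was uncertain: its most intense probe set differed by -0.54 (13149 and 19091) and its 3 others by -1.59 to -1.39.

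The sequence before the start sites of these genes was searched for short motifs on both strands. RefSeq promoters of assembly GRCm38.p6 were used, 250 bases before the first listed start site of each gene. The letters CAAAGTCCA, bound by the nuclear receptor HNF4, were present in 9 of 791 promoters of genes higher in PDPN- (1.14%). They were in 0.365% over all genes tested and in 0.381% over all 27025 promoters. Among genes higher in PDPN+ that were raised by the ALCAM sort over liver and are on no blood list, or on a tissue list as well, called non-blood genes here, 0 of 593 promoters held them. Of the 37 genes tested that held the letters, 9 were higher in PDPN-, 6 in PDPN+ and 22 within 2-fold. For the FOXA letters TGTTTAC, bound by forkhead factors of the liver, these shares were 3.29%, 2.17% and 3.09%. For C/EBP, the family of leucine zipper factors of liver and fat, the letters TTGCNNAA gave 11.3%, 7.43% and 9.55%. For GATA factors, known from blood and mesoderm, AGATAA gave 9.73%, 6.02% and 10.3%. For TEAD factors, the DNA-binding partners of YAP, the letters GGAATG gave 12.9%, 10.8% and 12.6%. For non-blood genes higher in PDPN+ the TEAD share was 15.7% and the others lay below that of all genes tested. None of these motifs contains another. A match is a description of letters in this window, not a site.

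HNF4 matches are shown for the 6 of these 9 genes with an intensity of 500 or more in PDPN-, chosen after the values were seen. Each line runs 5′ to 3′ on the gene's strand, with up to 30 bases on each side and the letters, or their reverse complement, in capitals.
Cyp2c70, chr19:40187312-40187380, minus strand: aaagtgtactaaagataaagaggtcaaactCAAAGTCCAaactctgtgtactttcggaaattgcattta
Aspdh, chr7:44465353-44465421, plus strand: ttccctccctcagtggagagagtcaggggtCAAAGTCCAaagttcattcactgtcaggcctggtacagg
Agxt2, chr15:10358482-10358532, plus strand: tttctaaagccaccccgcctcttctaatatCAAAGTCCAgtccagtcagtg
Aadat, chr8:60506022-60506090, plus strand: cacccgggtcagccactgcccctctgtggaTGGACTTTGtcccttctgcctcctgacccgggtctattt
Cd302, chr2:60284579-60284647, minus strand: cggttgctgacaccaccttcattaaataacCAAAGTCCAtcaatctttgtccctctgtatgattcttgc
Cyp2c68, chr19:39741140-39741208, minus strand: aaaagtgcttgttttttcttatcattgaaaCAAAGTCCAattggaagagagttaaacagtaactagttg
The matches begin 64 bases before the start site in Cyp2c70, 52 in Aspdh, 21 in Agxt2, 72 in Aadat, 133 in Cd302 and 77 in Cyp2c68. Enzymes of amino acid metabolism among them were Agxt2, an aminotransferase, at 1625 in PDPN+ and 4948 in PDPN-, and Aadat, another aminotransferase, at 668 and 1987. Aspdh, an aspartate dehydrogenase family member, was at 224 and 746. Cyp2c70, which makes muricholic acids from bile acids, was at 987 and 3381 and Cyp2c68 at 5511 and 11920, and this P450 subfamily has close copies that can share probes. Cd302, a lectin-like receptor, was at 5485 and 12249. All 6 were above the floor in both arrays.

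**Figure D3:**
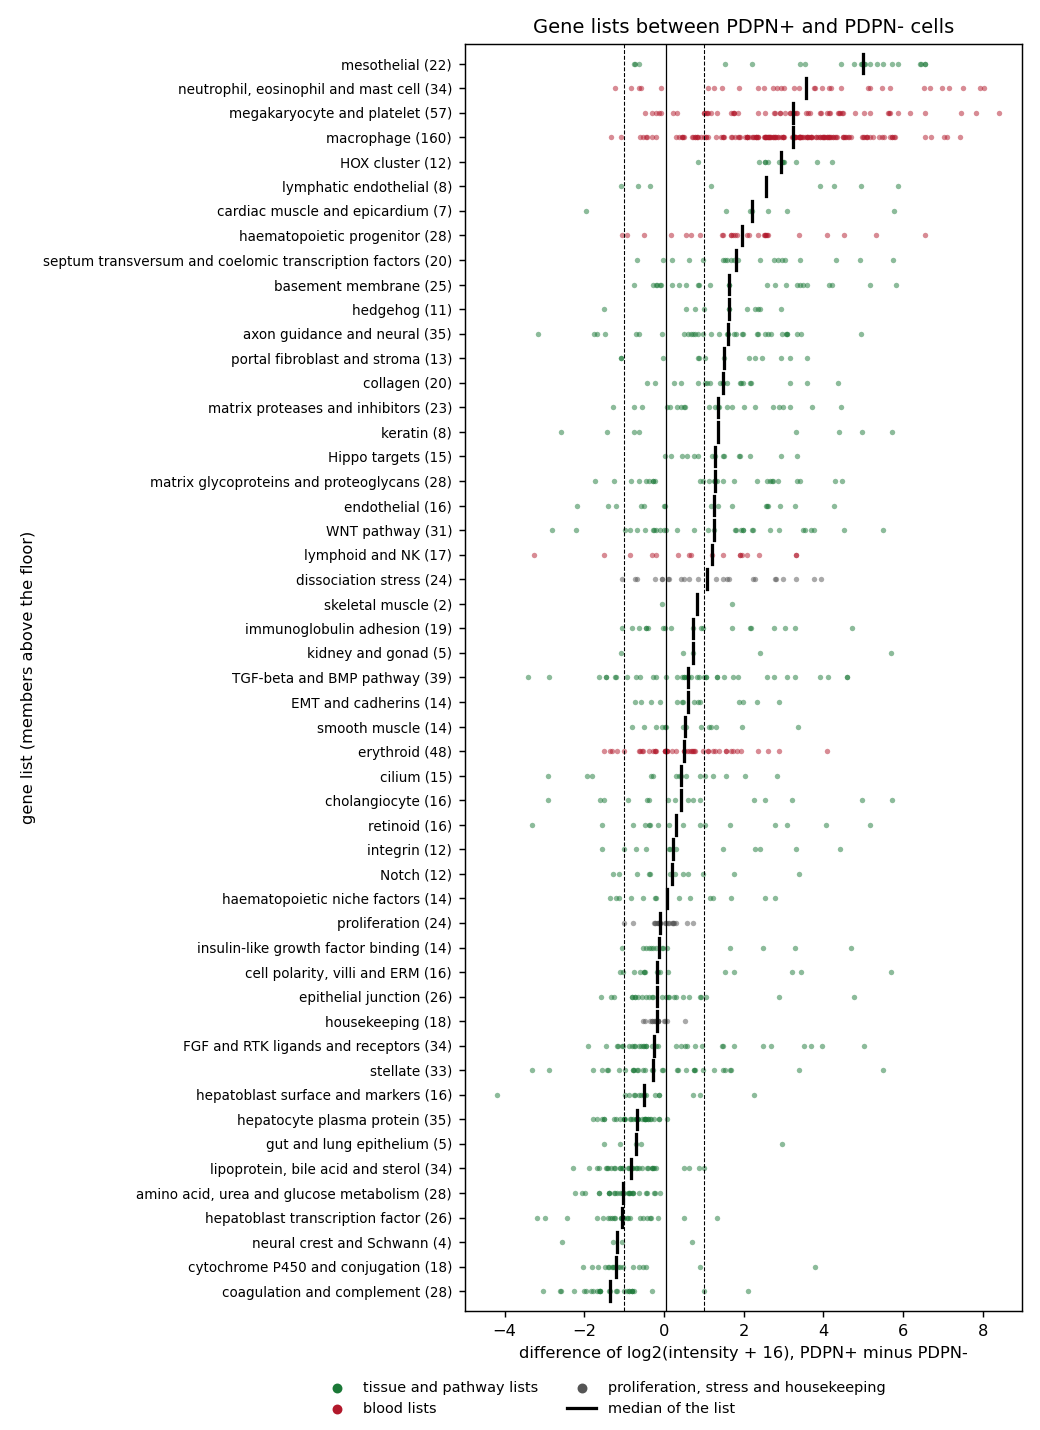
Each row is a gene list with the number of its members above the floor, each point a member by its difference of log2(intensity + 16), PDPN+ minus PDPN-, and the black bar the list's median; the thin solid line is the median of all genes and the dashed lines are 2-fold. The mesothelial and 3 blood lists lie farthest right, and the coagulation and complement list, with a median of -1.36, lies farthest left.

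Of 33 stellate cell genes above the floor 7 were higher in PDPN- and 7 in PDPN+, with a median of -0.26. Over all genes the shares were 7.91% and 20.0%, so the PDPN+ count is near the background. The PDPN- side held, besides Lrat, Bmp5 and Itga8, the potassium channel regulator Abcc9 (484 and 1709), the neurotrophin receptor Ngfr (154 and 436), Angptl6 (461 and 1258) and Steap4 (156 and 361). Abcc9 and Steap4 are also known from pericytes. The PDPN+ side held transcription factors of the early liver mesenchyme, Foxf1 (7981 and 2493) and Hand2 (3277 and 1129), with Pdgfra (7926 and 2848), Ecm1 (2416 and 751), Rspo3 (4153 and 1717), Ntm (2034 and 181) and Fcna (1892 and 26). Fcna, a ficolin, is also known from macrophages. Desmin (Des, 306 and 315), Pdgfrb (1555 and 2638), Reln (9305 and 14543) and Colec11 (2105 and 3614), a lectin of stellate cells, did not reach 2-fold.

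Among pathway lists, some ligands were higher in PDPN- while most members were not. The shares over all genes were 7.91% toward PDPN- and 20.0% toward PDPN+. In the TGF-beta and BMP list 7 of 39 genes were 2-fold higher in PDPN- and 15 in PDPN+ (median 0.61). Hamp, the iron hormone hepcidin and a BMP target of hepatocytes, was at 23 in PDPN+ and differed by -3.41, Gdf2 (BMP9) was at 894 and 2481, Gdf10 at 1047 and 2494 and Gdf15 at 683 and 2158. In the WNT list Dkk1 and Frzb, both secreted inhibitors, were the 2 higher in PDPN- of 31, with Frzb at 38 and 233. In the FGF and receptor kinase list 6 of 34 were higher in PDPN- and 9 in PDPN+ (median -0.25). Receptors for growth factors on the PDPN- side were Fgfr4 (694 and 1917), Fgfr3 (651 and 1504), Erbb3 (1359 and 2842) and Fgfr2 (4090 and 8376; -0.55 by its other probe set), with the feedback inhibitor Spry1 at 117 and 481. Of 14 blood niche factors 3 were higher in PDPN- and 5 in PDPN+. Among the 3 were Cxcl12, the chemokine that retains blood stem cells, at 3185 and 8182 and thrombopoietin (Thpo) at 463 and 1039. The 5 on the PDPN+ side were Mdk (9292 and 3971), Angptl2 (1133 and 500), Ccl2 (450 and 51), Angpt1 (352 and 47) and Angpt2 (202 and 52). Dlk1 and Igf2, abundant in both fractions, differed by -0.22 and -0.20. Epithelial junction genes were mostly shared, with 20 of 26 within 2-fold. Crb3 (460 and 1416), Pkp2 (1397 and 3528) and Cldn1 (3532 and 8452) were higher in PDPN-, and Cldn15 (445 and 1), Cdh3 (756 and 88) and Patj (620 and 291) in PDPN+. E-cadherin (Cdh1, 6593 and 10883) differed by -0.72.

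A further view took genes that the ALCAM sort had raised over whole liver by 2-fold. They also had to be on no blood list, or on a tissue list as well. Of 10717 genes above the floor in ALCAM+ or liver, 15.7% were so raised. The rule itself set no floor in those arrays, and Ooep, at 83 in ALCAM+ and 6 in liver, passed it. Only 10 of the non-blood genes so defined are on both kinds of list. They numbered 1695 in all, of which 796 (47.0%) were higher in PDPN+ and 49 (2.89%) in PDPN-, beside 20.0% and 7.91% over all genes. Of 558 genes higher in PDPN- and above the floor in ALCAM+ or liver, 48 were raised by the sort. Liver genes not raised by it, such as F9, F11 and Arg1, are left out by this rule, so these shares depend on the choice. The ALCAM+ and liver arrays served only this choice and the floor. Named after their values were seen, the 49 included liver enzymes and plasma protein genes such as Hpd, Cyp2d10 and Crp, and also Gdf2, Gdf10 and Spry1, the calcium sensor Hpca (176 and 764), Tmem204 (250 and 949), the matrix-associated factor Igfbp7 (649 and 1373), the homeobox gene Meox2 (80 and 186) and Tshz2 (271 and 680). In the ITGA8 arrays, which share no array with the PDPN pair, 22 of the 49 were 2-fold higher in ITGA8+ and 0 in ITGA8-, where the background over all genes was 4.48% toward ITGA8+ and 6.2% toward ITGA8-. Igfbp7 was at 3727 in ITGA8+ and 586 in ITGA8-, Gdf2 at 6991 and 1133, Hpca at 2016 and 428 and Gdf10 at 10966 and 2763.

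The 30 non-blood genes with the largest difference toward PDPN+, among those at 500 or more there, were 32.3-fold to 94.0-fold higher. In 23 of them the PDPN- array was at or below the floor, so the size of the fold depends on the pseudocount. All 12 with a further probe set above the floor had one that was 2-fold in the same direction. Mesothelial genes led: after Bnc1 (94.0-fold) and Upk3b (93.2-fold) came Upk1b, another uroplakin, at 2891 in PDPN+ and 17 in PDPN-. Lrp2, the endocytic receptor megalin, was at 1442 and 1. Muc16, the mucin CA125, was at 1675 and 36, and Krt7, a simple epithelial keratin, at 5545 and 90. Of these only Upk3b exceeded the floor in PDPN-.

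Contractile and channel genes were also among the 30. Myl7, the atrial myosin light chain, was at 11180 in PDPN+ and 190 in PDPN-, and Unc45b, a myosin chaperone, at 1356 and 1. Of 7 cardiac and epicardial genes above the floor 6 were higher in PDPN+, including Tnni1 (2206 and 246), Tnnt2 (397 and 73) and Actc1 (252 and 28), while Tnnc1, the slow troponin C, was higher in PDPN- (2179 and 8491). All 7, of 19 measured, were above the floor in PDPN+ and 3 in PDPN-. The heart markers Nppa (39 and 53) and Myh6 (3 and 4) were below the floor in both. Potassium channel subunits Kcnab1 (2796 and 46) and Kcna1 (683 and 4) and the G protein subunit Gnaz (2090 and 45) were on the PDPN+ side. Pnoc, the precursor of the neuropeptide nociceptin, was at 6625 and 108, Gpm6a, a neuronal membrane glycoprotein, at 7351 and 165, and Cttnbp2, a cortactin partner of neurons, at 2728 and 19. Membrane organisers among the 30 were Cav1, caveolin 1 (7082 and 204), Tm4sf5 (6308 and 146), Ildr2 (4005 and 79) and the small GTPase Arl4c (2762 and 35). Ooep (1248 and 3), Rnf112 (1001 and 1), Slc35d3 (1034 and 8), whose product is needed for platelet dense granules, and the gene with Entrez identifier 74564 (1542 and 31) completed this group. Being on no blood list and raised by the ALCAM sort does not exclude expression in blood cells. For Slc35d3 and Gnaz the part of blood cells was not tested.

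**Figure D4:**
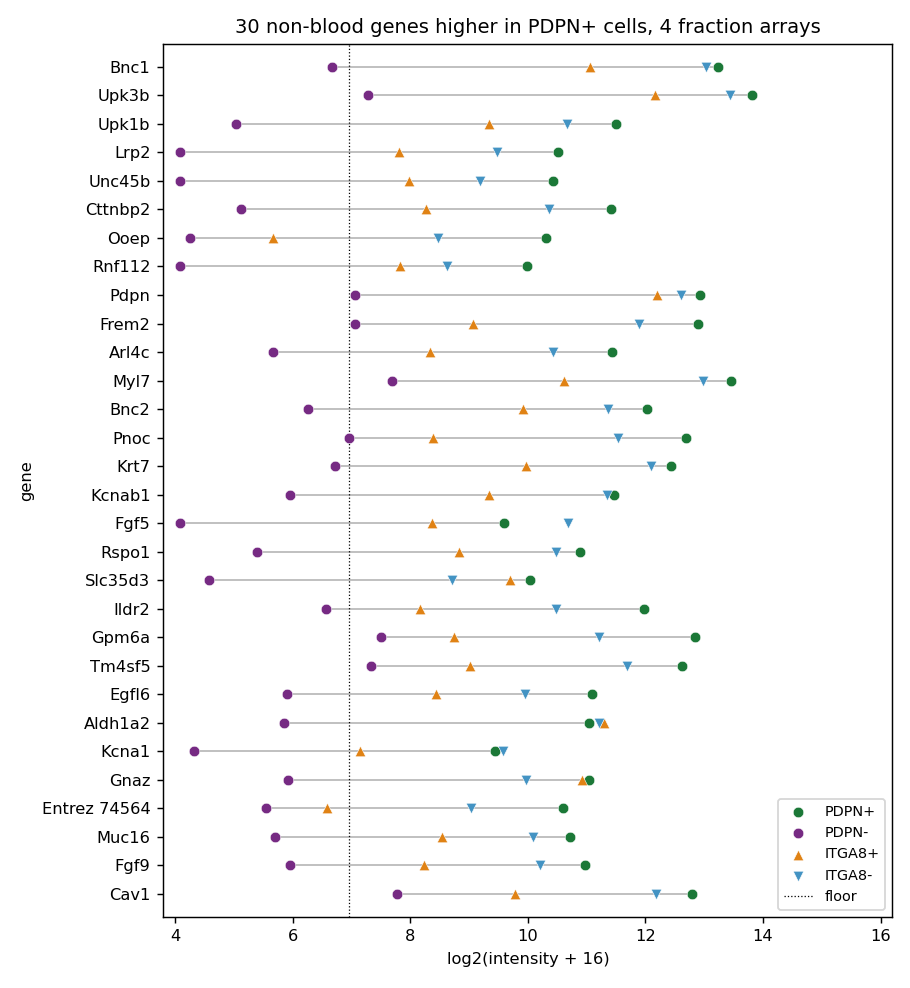
The 30 non-blood genes with the largest difference toward PDPN+, in order, with log2(intensity + 16) in the 4 fraction arrays, 1 array each; the grey line joins the PDPN pair and the dotted line is the floor. PDPN- is the lowest array for every gene shown, and ITGA8- lies above ITGA8+ except in Slc35d3, Aldh1a2 and Gnaz.

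Over the mesothelial list, 19 of 22 genes were 2-fold higher in PDPN+ and 0 in PDPN-, beside 20.0% and 7.91% over all genes, with a median of 5.003. All 22 measured members were above the floor in PDPN+ and 9 in PDPN-, and the median was also 5.003 with no floor. The Wilms tumour factor Wt1 was at 7554 and 691, and Msln, mesothelin, at 430 and 22. The 3 within 2-fold, Krt8 (6385 and 10767), Krt18 (12766 and 19569) and Cdh1, are shared with hepatoblasts. Keratins, 8 above the floor, split: Krt7, Krt19 (5676 and 164), Krt14 (1228 and 43) and Krt15 (212 and 7) were higher in PDPN+, and Krt20 (1756 and 4736) and Krt23 (29 and 255) in PDPN-. Podocalyxin (Podxl), an apical sialomucin, was at 14427 and 261, and its adaptor ezrin (Ezr) at 7005 and 2404. In the list of cell polarity and villus genes as a whole, 5 of 16 were higher in PDPN+ and 2 in PDPN- (median -0.16).

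Transcription factors of the septum transversum and coelomic lining were higher in PDPN+ for 15 of 20 and in PDPN- for 0 (median 1.81). Over all genes the shares were 20.0% and 7.91%. Bnc2, the paralog of Bnc1, was at 4140 and 61, Lhx9 at 1826 and 45, Isl1 at 9140 and 440 and Barx1 at 1286 and 151. Gata4, needed for the liver mesenchyme, was at 5354 in PDPN+ and differed by 2.41. Lhx2 (262 and 427), Mab21l2 (158 and 162), Tcf21 (1710 and 1495), Nr2f2 (11640 and 7471) and Hlx (1359 and 675) were within 2-fold, though the 4 other probe sets of Nr2f2 differed by 1.28 to 1.76. HOX genes, which record position along the body axis, were higher in PDPN+ for 11 of 12 above the floor, of 26 measured (median 2.93, and 1.40 with no floor). All 12 were above the floor in PDPN+ and 4 in PDPN-, so most entered through the PDPN+ array. Hoxb3 (4429 and 707), Hoxc4 (4412 and 546) and Hoxa3 (3798 and 474) had the highest intensities, and Hoxc8 (146 and 73) did not reach 2-fold.

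Matrix genes were on the PDPN+ side, with different chains standing out. For all lists here the shares over all genes were 20.0% toward PDPN+ and 7.91% toward PDPN-. Of 20 collagen genes, 15 were 2-fold higher in PDPN+ and 0 in PDPN- (median 1.49). The fibrillar chains Col3a1 (20710 and 7789) and Col1a2 (17455 and 5786) were abundant in both, and Col1a1 (20881 and 11581) did not reach 2-fold, while its other probe set differed by 1.77. Col12a1 (1130 and 39) and Col9a2 (1073 and 74) differed most. Basement membrane genes divided by chain: 14 of 25 were higher in PDPN+ and 0 in PDPN- (median 1.64). Epithelial chains Lama5 (4215 and 381), Col4a5 (5800 and 558) and Col4a6 (1416 and 61) were higher in PDPN+, whereas the widespread chains Col4a1 (1646 and 2796) and Col4a2 (1284 and 1373) were not; the other probe set of Col4a1 differed by -1.23. The Fraser complex genes Frem2 (7638 and 118) and Fras1 (2331 and 266), which anchor epithelia to their basement membrane, were on the PDPN+ side with Npnt (3775 and 320), the nephronectin gene, whose product is a ligand of integrin alpha 8 beta 1, and Egfl6 (2167 and 44). Of 28 matrix glycoproteins 17 were higher in PDPN+ (median 1.28), and of 23 matrix proteases and inhibitors 14 (median 1.35). Fmod, fibromodulin (10830 and 541), thrombospondin 1 (Thbs1, 3530 and 145), Timp3 (2478 and 99) and Lox, the collagen crosslinker (5196 and 805), were higher in PDPN+. Prelp (65 and 254), Spon2 (265 and 655) and Mmp15 (203 and 515) were the members of these 2 lists higher in PDPN-.

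Ligands of several pathways were higher in PDPN+. Rspo1, an amplifier of WNT signals, was at 1872 and 26, and the ligands Wnt9a, Wnt5b and Wnt5a were at 2052 and 74, 1694 and 131, and 643 and 32. Of 31 WNT pathway genes 17 were higher in PDPN+, beside 20.0% over all genes. The list's median was 1.27 (0.61 after quantile normalisation, 0.64 after loess centring and 0.09 with no floor). Axin2, a target of the pathway, was at 1221 and 1308. Fgf9 (1995 and 46), Fgf18 (630 and 25) and Fgf5 (753 and 1) were higher in PDPN+, opposite to the receptors Fgfr2, Fgfr3 and Fgfr4. Pdgfc (11784 and 905), Pdgfd (2943 and 243) and Pdgfa (7534 and 2210) were on the same side. So were Tgfb3 (4301 and 233) and Tgfb2 (3932 and 390), with the BMP modulator Bmper (1712 and 56) and the latent TGF-beta binding protein Ltbp1 (16879 and 5042).

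In this paragraph the shares over all genes were 20.0% toward PDPN+ and 7.91% toward PDPN-. Hedgehog pathway genes were higher in PDPN+ for 8 of 11 and in PDPN- for 1 (median 1.63). Gli1 (725 and 81), Gli2 (1072 and 197) and Gli3 (6173 and 1431) were on the PDPN+ side. Ptch1 was within 2-fold (10774 and 7364, and 2.21 by its other probe set), and the ligand Ihh (127 and 393) was higher in PDPN-. Genes of the Hippo list, which respond to or carry YAP signals, were higher in PDPN+ for 9 of 15 and in PDPN- for 0 (median 1.28), with Ccn2 (2354 and 219) and Ccn1 (11210 and 3971) among the targets and Yap1 itself equal (6433 and 6296). Guidance genes were higher in PDPN+ for 21 of 35 and in PDPN- for 4 (median 1.60), and the 4 are near the share over all genes. The receptor Nrp2 was at 2928 and 80 and the semaphorin Sema3d at 4045 and 385, while Dcx (21 and 314; -0.54 by its other probe set), Ntn1 (36 and 161), Plxna2 (188 and 637) and Ntrk3 (40 and 140) were higher in PDPN-.

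Of 16 retinoid genes, 6 were 2-fold higher in PDPN+ and 2 in PDPN-, beside 20.0% and 7.91% over all genes. The enzymes that make retinoic acid, Aldh1a2 (2082 in PDPN+ and 42 in PDPN-) and Aldh1a1 (1355 and 66), and the binding proteins Crabp2 (1658 and 180) and Crabp1 (4488 and 1421) were higher in PDPN+, with the uptake receptor Stra6 (299 and 30) and the nuclear receptor Rarg (308 and 142). Lrat and the retinol binding protein Rbp2 (709 and 2118) were higher in PDPN-. The plasma retinol carrier gene Rbp4 (18450 and 23609) was within 2-fold.

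Blood genes were higher in PDPN+. Of 303 genes on a blood list and no tissue list above the floor, 229 were higher in PDPN+ and 9 in PDPN-, beside 20.0% and 7.91% over all genes. Leaving all 303 out left 2465 higher in PDPN+ and 1055 in PDPN-. The megakaryocyte and platelet list had 50 of 57 genes higher in PDPN+ and 0 in PDPN- (median 3.25), with summed intensities of 124740 and 24409. The sum in ITGA8+, 146898, was above that of PDPN+. Itga2b, the platelet integrin, was at 571 and 12, and Clec1b, the gene for CLEC-2, at 3700 and 57. In the macrophage list 138 of 160 were higher in PDPN+ and 2 in PDPN- (median 3.23), with sums of 223075 and 71213 and 1 member at 0 in PDPN-. Csf1r, the receptor that maintains macrophages, was at 5357 and 81, and Adgre1 (F4/80) at 1169 and 19. The neutrophil, eosinophil and mast cell list had 29 of 34 higher in PDPN+ and 1 in PDPN- (median 3.58), with sums of 62408 and 22305 and 1 member at 0 in PDPN+. Mpo, myeloperoxidase, was at 1553 and 1 and Camp, cathelicidin, at 2490 and 4. In these 3 lists 57, 159 and 34 members exceeded the floor in PDPN+ and 22, 47 and 8 in PDPN-, so most entered through the PDPN+ array.

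The remaining blood lists differed less. Progenitor genes were higher in PDPN+ for 21 of 28 and in PDPN- for 1 (median 1.96), with summed intensities of 44454 and 36711. All 28 were above the floor in PDPN+ and 13 in PDPN-. The pan-leukocyte gene Ptprc was at 907 and 24. Erythroid genes were higher in PDPN+ for 15 of 48 and in PDPN- for 4 (median 0.51), with sums of 96412 and 88629. Beside 20.0% and 7.91% over all genes, the 4 toward PDPN- are near the background. Lymphoid and NK genes were higher in PDPN+ for 9 of 17 and in PDPN- for 2 (median 1.21), with sums of 17268 and 16289; the T cell marker Cd3e (2 and 3) was below the floor in both. The 9 blood-list genes higher in PDPN- were the embryonic globin Hbb-y (1533 and 3841), Hba-x (110 and 268), Aqp9 (245 and 722), Hebp1 (2311 and 5906), Ccl9 (2587 and 6530), P2ry14 (714 and 1528), Mgst2 (1927 and 4574), Klrb1a (1 and 147) and Dntt (48 and 167). PDPN+ also exceeded the ITGA8 arrays in granulocyte genes, whose summed intensity was 14000 in ITGA8+ and 12922 in ITGA8-, and in macrophage genes, at 106488 and 94439. PDPN- exceeded them too in granulocyte genes (22305) but not in macrophage genes (71213). Both PDPN+ and PDPN- were below the ITGA8 arrays in erythroid genes, at 280291 and 243060, and in progenitor genes, at 70704 and 64310. Apart from the listed genes, 1669 of the 2694 genes higher in PDPN+ were neither on a blood list nor raised by the ALCAM sort over liver. The part of blood cells in their difference was not tested. In sorted bulk RNA, fewer cells of a type and less RNA per cell cannot be told apart.

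Endothelial genes were near the floor, with 9 of 16 higher in PDPN+ and 3 in PDPN-, beside 20.0% and 7.91% over all genes. The pan-endothelial markers Pecam1 (78 and 2), Cdh5 (92 and 10) and Emcn (42 and 10) were below the floor in both arrays. Flt4 (2137 and 95), a receptor also of lymphatic endothelium, was higher in PDPN+, and Plvap (88 and 460), Gpr182 (278 and 763) and Eng (112 and 279) in PDPN-.

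Cell cycle and stress genes were read as checks. Of 24 proliferation genes 23 were within 2-fold (median -0.10), with Mki67 at 9002 and 7288; cyclin E1 (Ccne1, 2470 and 4974) was higher in PDPN-. Genes known to respond to tissue dissociation were higher in PDPN+ for 12 of 24 and in PDPN- for 1 (median 1.07), beside 20.0% and 7.91% over all genes. The 1 was the vascular factor gene Klf2, at 379 and 799. Fos (13458 and 8651), Jun (7421 and 5196) and Egr1 (19747 and 18079) were high in both and within 2-fold, whereas Nr4a1 (2139 and 141), Fosb (3921 and 555), Hspa1b (1770 and 240) and Ier3 (1232 and 65) were higher in PDPN+. The part of this response in other differences was not tested.

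The ITGA8 sort of ALCAM+ cells gave a separate pair of arrays for the same genes. Of the 30 genes led by Nr1h4, 25 were above the floor there: 9 were 2-fold higher in ITGA8+, 2 in ITGA8- and 14 within 2-fold. The 9 were Nr1h4 (720 in ITGA8+ and 120 in ITGA8-), Bmp5 (867 and 246), Dkk1 (1010 and 304), Shisa3 (2674 and 987), Clca3a1 (1188 and 339), Saa3 (152 and 48), Acot3 (500 and 241), Smlr1 (586 and 273) and 1110032F04Rik (397 and 124), and the 2 were Dqx1 and Mettl7a2. Other liver genes of the 30 were within 2-fold: F11 was at 440 and 462, Arg1 at 149 and 251 and Pon1 at 229 and 202. Over all 900 genes higher in PDPN- that were above the floor in the ITGA8 arrays, 99 were higher in ITGA8+, 32 (3.56%) in ITGA8- and 769 within 2-fold, beside 4.48% and 6.2% over all genes. Of 22 hepatoblast transcription factors, Nr1h4 was higher in ITGA8+ and Id1 (453 and 2014) in ITGA8-. Coagulation genes higher in ITGA8+ included Plg (1552 and 732) and Proz (1001 and 308). In the stellate list 11 of 32 were higher in ITGA8+ and 0 in ITGA8-, among them Itga8 (4354 and 871), Ngfr (2466 and 602), Abcc9 (1742 and 449) and Colec11 (6291 and 1202).

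For the 30 non-blood genes led by Bnc1 the ITGA8 pair gave 25 that were higher in ITGA8- and 0 in ITGA8+. Pnoc (320 in ITGA8+ and 2956 in ITGA8-), Frem2 (519 and 3786) and Ooep (35 and 341) had the largest of these differences. The 5 within 2-fold were Pdpn (4658 and 6176), Rnf112 (210 and 381), Aldh1a2 (2509 and 2363), Slc35d3 (813 and 402) and Gnaz (1915 and 983). Among all 794 non-blood genes higher in PDPN+ and above the floor there, 122 (15.4%) were higher in ITGA8- and 60 (7.56%) in ITGA8+, against the same background. Of 22 mesothelial genes 18 were higher in ITGA8+ than in PDPN- and 19 higher in ITGA8- than in PDPN-, by any amount. The list's summed intensity was 39730 in ITGA8+, 73326 in ITGA8- and 45338 in PDPN-, and Krt8, Krt18 and Cdh1 were highest in PDPN-. Bnc1 was at 2124 in ITGA8+ and Upk3b at 4578, against 86 and 139 in PDPN-. With 1 array per group, the difference between the 2 sorts has no test.

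**Figure D5:**
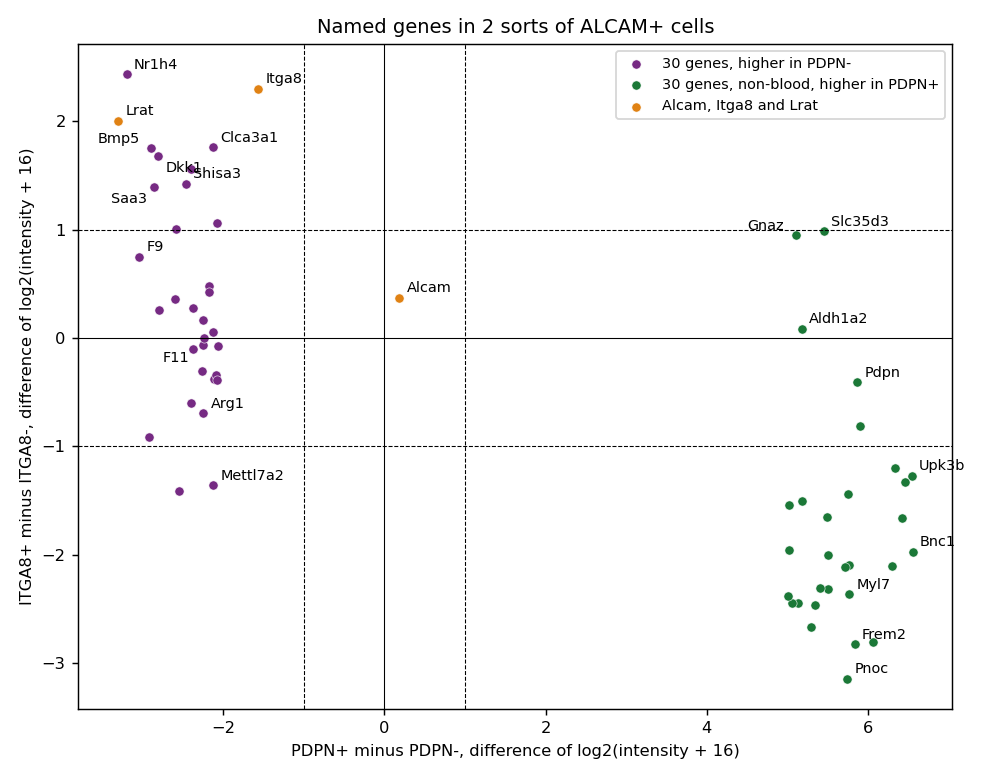
Named genes by their difference of log2(intensity + 16) in the PDPN pair (x) and in the ITGA8 pair (y), 1 array per fraction, with dashed lines at 2-fold. The 30 genes higher in PDPN- spread from above 2 (Nr1h4) to below -1 (Mettl7a2) on the y axis, and 25 of the 30 non-blood genes higher in PDPN+ lie below -1.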

How the data were processed

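The authors deposited 1 table of intensity values, whole numbers on a linear scale, for 45101 probe sets of Affymetrix Mouse Genome 430 2.0 arrays. RMA and Partek are named, per the submitters' processing notes, with no version; the build is not given in the sources used here. RMA values are usually on a log2 scale and these are not. Probe sets naming no gene (5797) or several genes (1280) and 64 controls without a value in the fraction arrays were left out. The other 38011 named 20678 genes. A RefSeq table of GRCm38.p6, matched through Entrez identifiers for 92.11% of these probe sets, gave symbols. The damaged symbol of 1 gene was replaced by its Entrez identifier.

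Values were taken as log2(intensity + 16). The probe set with the higher mean over the PDPN pair stood for a gene, and the floor was 109. A fold against a value under the floor moves with the pseudocount. Non-blood genes are on none of the blood lists (unless also on a tissue list) and are 2-fold higher in ALCAM+ than in liver after subtracting the median shift of 0.88. The ALCAM+ and liver arrays are on another scale than the 4 fractions, with medians of 66 and 42. Besides this choice they entered only the floor, the median over all 6 arrays. That floor is below the medians of the PDPN+ and PDPN- arrays, 181 and 123.

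The genes named were Pdpn, Alcam, Itga8, Bnc1, Upk3b and Lrat. Next came the 30 largest differences each way at an intensity of 500 or more (toward PDPN+ among non-blood genes). Added to these were up to 6 members of each described list in each direction with its best known members, and the genes of most counts of 5 or fewer. The 51 lists hold 1619 entries; 1414 listed genes were measured, and some stand in several lists. Members and lists were chosen with earlier results of these data known. Pairs of values are given as PDPN+ then PDPN-, or ITGA8+ then ITGA8-. Levels of different genes are not compared per length. Python 3.11.15, pandas 2.3.3, numpy 2.4.6, statsmodels 0.14.6 and matplotlib 3.10.9 were used. The counting was tested on simulated data. Each group is 1 array, and that number limits the precision. Some genes, and 1 of 6 motifs searched, are not reported here.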

Additional observations from a re-analysis of the deposited data

How the results depend on the processing

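No paired analysis was possible because each group is 1 array and the labels give no replicate numbers. At 4-fold, 1238 genes were higher in PDPN+, 109 in PDPN- and 411 non-blood genes in PDPN+, fewer by construction. With no floor 1695 genes were higher in PDPN-. The non-blood count toward PDPN+ was 512 with a pseudocount of 64, and 2465 when genes needed only to be on no blood list. Among list medians past 2-fold, keratin, with 8 members, turned to -0.48 with no floor and -0.62 with the floor doubled, as members entered or left, and lymphoid and NK to -0.011 with loess centring, for which the cause was not tested. Over the 51 lists, 469 of the other medians moved by less than 1.5-fold and 38 by more. With no floor the medians were 1.46 for the neutrophil, eosinophil and mast cell list, 0.96 for axon guidance, 0.88 for portal fibroblasts and 0.75 for the cardiac list, since genes near background then enter. The endothelial median of 1.27 was 0.08 with loess centring and 0.02 with the floor doubled. For the 63 genes named by rank or as markers, 566 values moved by less and 57 by more. Medians of the hepatocyte lists stayed below 0 and those of the mesothelial, collagen, HOX, megakaryocyte, macrophage and neutrophil lists above 0 with quantile normalisation and with loess. Leaving out blood-list genes, and the counts in the ITGA8 arrays with other pseudocounts (6 of the 30 PDPN- genes higher in ITGA8+ with 64) or quantile normalisation, were chosen after seeing the data. Intensities near the floor limit what the PDPN- array can show: a low value there is no proof of absence.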

Other observations

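The cilium list had 5 of 15 genes higher in PDPN+ and 3 in PDPN-, with a median of 0.43 that was -0.10 after loess centring. The shares over all genes were 20.0% and 7.91%. Pkhd1, the fibrocystin gene of bile ducts and kidney tubules, was at 21 in PDPN+ and 260 in PDPN-, Foxj1, the factor for motile cilia, at 28 and 152, and Dnaic1, a dynein chain, at 101 and 392. The 5 on the PDPN+ side were Ccdc39 (1507 and 632), Ift88 (394 and 185), Rsph1 (254 and 22), Ccdc40 (178 and 31) and Cfap45 (144 and 38). Of 16 cholangiocyte genes, Pkhd1, Tff3 (297 and 941) and Ggt1 (681 and 1975) were higher in PDPN- and 5 in PDPN+, the keratins Krt7 and Krt19, Sox4 (7580 and 1304), Aqp1 (764 and 68) and Spp1 (699 and 134). Sox9, an early bile duct factor, was at 418 and 247.

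Of 14 insulin-like growth factor genes 4 were higher in PDPN+, 1 in PDPN- and the others within 2-fold. Beside 20.0% and 7.91% over all genes, these counts are near the background. H19 was at 24901 in PDPN+ and 25521 in PDPN-, Igf2r at 10558 and 13721 and Igfbp4 at 9850 and 12350. Igf1 (2488 and 427), Igfbp5 (11915 and 441), Igfbp2 (3199 and 312) and Igfbp6 (436 and 127) were higher in PDPN+, and Igfbp7 (649 and 1373) in PDPN-. Portal fibroblast genes were higher in PDPN+ for 8 of 13, led by Fbln2 (1995 and 152) and Fbln5 (2121 and 221), with Meox1 (127 and 285) and Meox2 (80 and 186) higher in PDPN-. Integrin subunits Itga6 (2773 and 262) and Itga3 (2874 and 527), partners for laminin, were higher in PDPN+, as were the adhesion genes Cd200 (1874 and 56) and Mcam (2189 and 308), while Icam1 was at 1157 and 2428.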
